A study of Homo sapiens with 4 samples.

Results

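ZIC2, ZIC5, OTX2, SALL1 and SALL2 are 5 genes for transcription factors that are read as markers of primed human pluripotent cells. They were taken by name from a table of 16174 genes, and all 5 were listed. Poly(A) RNA of the established human embryonic stem cell line H9, grown in the primed state, had been read as PCR-amplified cDNA on a nanopore sequencer, in 4 libraries. All cells had been transfected with a doxycycline-inducible nuclease-dead Cas9 fused to BFP and the KRAB repressor domain (CRISPR interference) and selected with puromycin, and all were given doxycycline. One arm carried 4 pooled guides against the long non-coding RNA gene SNHG26 and the other carried non-targeting control guides, and each arm was harvested once after 2 days and once after 3 days. The labels do not say whether the selected cells were cloned, and the controls carry the same repressor and drug as the knockdown. With 1 library per arm and day, each mean of an arm or a day has n = 2, and the spread of an arm includes any effect of the day. The labels do not say that the libraries came from separate cultures, so p-values measure only the spread between these libraries.

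The ZIC proteins bind DNA through a block of zinc fingers and act in the early neural plate and in pluripotent cells. OTX2 is a homeodomain protein of the forebrain and of primed pluripotency. The SALL (spalt-like) proteins carry scattered pairs of zinc fingers, and SALL1 and SALL4 recruit the nucleosome remodelling and deacetylase complex (NuRD) through a short N-terminal motif. In cultured stem cells these genes are used to tell the primed state from the naive state, where several of them are lower.

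ZIC2 and ZIC5 lie head to head on chromosome 13, and only ZIC5 had values above 0 here, so the bases before the start of each are shown. In GRCh38 ZIC2 is listed on the plus strand (99981784 to 99986765) and ZIC5 on the minus strand (99962964 to 99971767), with 10017 bases between their listed starts. The 250 bases before a RefSeq start of each gene (GRCh38.p14) are given 5′ to 3′ on the strand of the gene, at chr13:99981534-99981783 for ZIC2 and at chr13:99971910-99972159 for ZIC5. Capitals mark matches on either strand to GGGCGG, a GC box, to CCAAT and to TATAAA, and matches may overlap.
ZIC2: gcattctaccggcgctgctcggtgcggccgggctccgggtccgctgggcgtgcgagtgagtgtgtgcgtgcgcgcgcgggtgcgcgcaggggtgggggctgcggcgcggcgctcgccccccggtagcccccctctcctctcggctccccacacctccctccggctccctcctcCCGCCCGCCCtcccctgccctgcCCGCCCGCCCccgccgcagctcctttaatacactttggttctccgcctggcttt
ZIC5: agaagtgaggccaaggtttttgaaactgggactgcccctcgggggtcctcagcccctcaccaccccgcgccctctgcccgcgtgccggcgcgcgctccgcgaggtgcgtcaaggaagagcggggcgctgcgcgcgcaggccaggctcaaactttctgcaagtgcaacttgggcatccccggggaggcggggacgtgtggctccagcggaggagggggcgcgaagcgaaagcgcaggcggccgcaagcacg
The ZIC2 window had 75.6% GC, 31 CpG sites and 4 matches to GGGCGG. The ZIC5 window had 70.4% GC and 28 CpG sites, and none of the 3 motifs was in it. It lies before the start of ZIC5 farthest upstream (99971909), so that no annotated exon of the gene is in it. The ZIC5 windows before the start listed in the table (99971767) and before another RefSeq start (99969172) held 3 matches and 1 match to CCAAT, with 64.8% and 61.6% GC, and neither held GGGCGG or TATAAA. Of 35116 such windows in the RefSeq table, 42.6% held GGGCGG, 32.0% held CCAAT and 10.7% held TATAAA. GC content was lower than that of ZIC2 in 90.7% of the windows and lower than that of ZIC5 in 80.1%. A match describes the letters and is not a binding site.

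Levels are in TPM as deposited, a number of reads divided by a length and scaled within each library. The length is the whole genomic span of the gene, introns included, so levels are compared between genes per genomic span. OTX2 was the most abundant of the 5. It stood at 43.5 and 39.5 TPM with the SNHG26 guides on day 2 and day 3, and at 41.9 and 45.5 TPM under the control guides. All 4 libraries lay close together, with 42.6 ± 2.52 TPM (SD, n = 4), and 92.1% of the listed genes had a lower mean. SALL2 followed with 9.62 and 19.8 TPM under the SNHG26 guides and 11.2 and 16.2 TPM under the control guides. Both day 3 libraries were above both day 2 libraries, and the mean was 14.2 ± 4.65 TPM (SD, n = 4).

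ZIC5 had 0.828 and 3.71 TPM under the SNHG26 guides and 5.47 and 2.29 TPM under the control guides. The lowest and the highest value were both from day 2, and the arms overlapped. SALL1 had 3.34 and 2.56 TPM under the SNHG26 guides and 2.10 and 1.76 TPM under the control guides. Both SNHG26 libraries were above both control libraries. ZIC2 was listed at 0 TPM in all 4 libraries. In order, OTX2 stood above SALL2 and SALL2 above ZIC5 and SALL1 in every library, while the ranges of ZIC5 (3.08 ± 1.99 TPM) and SALL1 (2.44 ± 0.684 TPM, both SD, n = 4) overlapped.

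**Figure D1:**
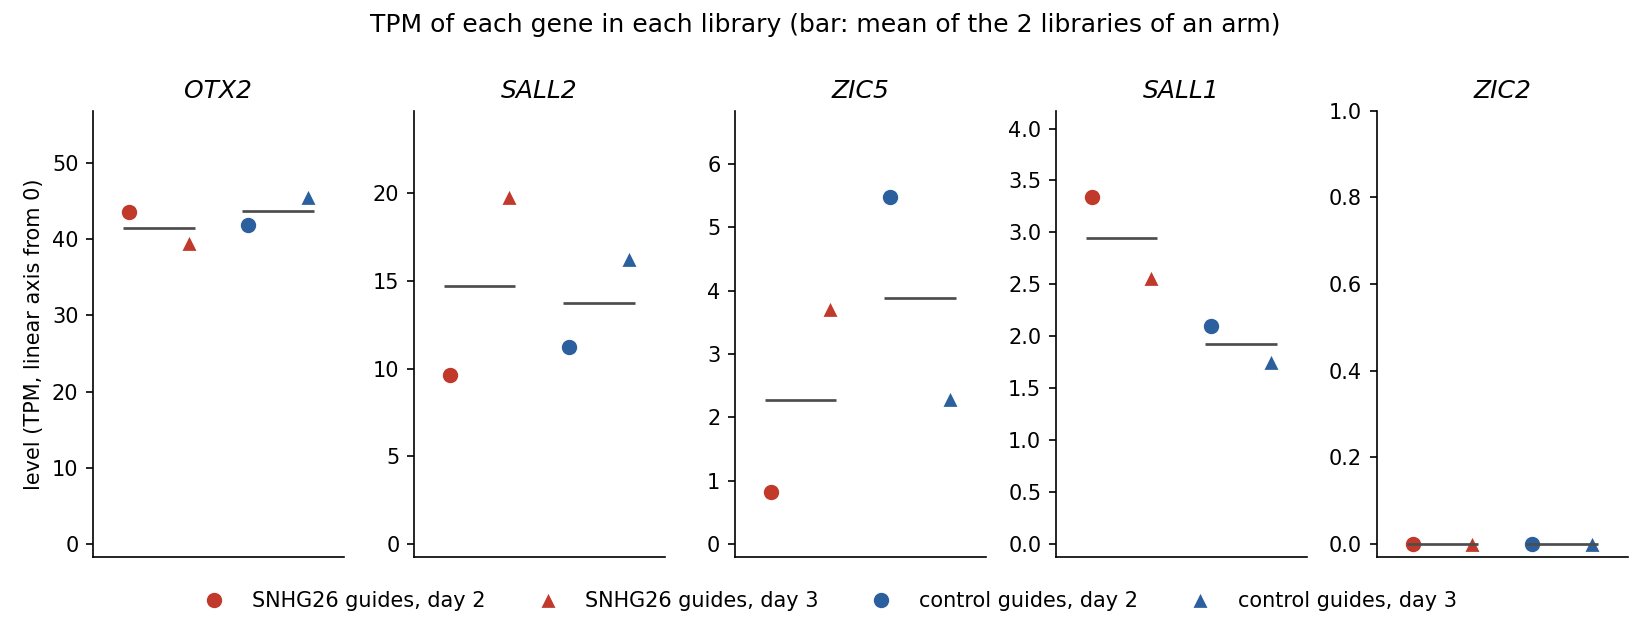
Level in TPM of each gene (linear axes, 1 scale per panel) in the 4 libraries, coloured by guide arm and shaped by day, with bars at the mean of the 2 libraries of an arm. OTX2 stays between 39.5 and 45.5 TPM, SALL2 is higher in both day 3 libraries, and ZIC2 is at 0 throughout.

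The depth behind these values differed widely between the genes. If each read covered its whole gene, the libraries held at most 947338 to 1220265 reads on the listed genes. For a gene of 10 kb, 1 read equalled 0.729 and 0.653 TPM in the SNHG26 libraries of day 2 and day 3, and 0.803 and 0.672 TPM in the control libraries. ZIC5 came out as whole reads on its listed span of 8804 bases, with 1 and 5 reads in the SNHG26 libraries and 6 and 3 reads in the control libraries. SALL1 values stood to each other as 7, 6, 4 and 4 reads in the same order, on a span of 15289 bases, which are the smallest whole numbers that give their ratios. For OTX2 and SALL2 no single span that gives whole reads was found, in a search that did not reach all numbers OTX2 allows. Only upper bounds are therefore known. These were 87.6 to 113.7 reads per library for OTX2 and 21.3, 48.8, 22.5 and 39.0 reads for SALL2. If all reads came from the coding transcript of shortest span (3736 bases for OTX2, 1065 bases for SALL2), they would be 19.5 to 25.3 reads for OTX2 and only 1.40 to 3.22 reads for SALL2. Their TPM can also differ at equal reads where the mix of transcripts differs.

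The spread between libraries was set beside the spread that counting alone gives at these depths. For ZIC5 the coefficient of variation over the 4 libraries was 64.6%, against 51.6% from a mean of 3.75 reads. For SALL1 it was 28.0%, against 43.6% from 5.25 reads. OTX2 had 5.92%, below the 9.96% that even its upper bound of reads gives. SALL2 had 32.7%, against 17.4% at its upper bound of reads, and fewer reads would raise the latter. Reads amplified by PCR without molecular identifiers are not independent molecules, so intervals and limits cover counting error only.

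**Figure D2:**
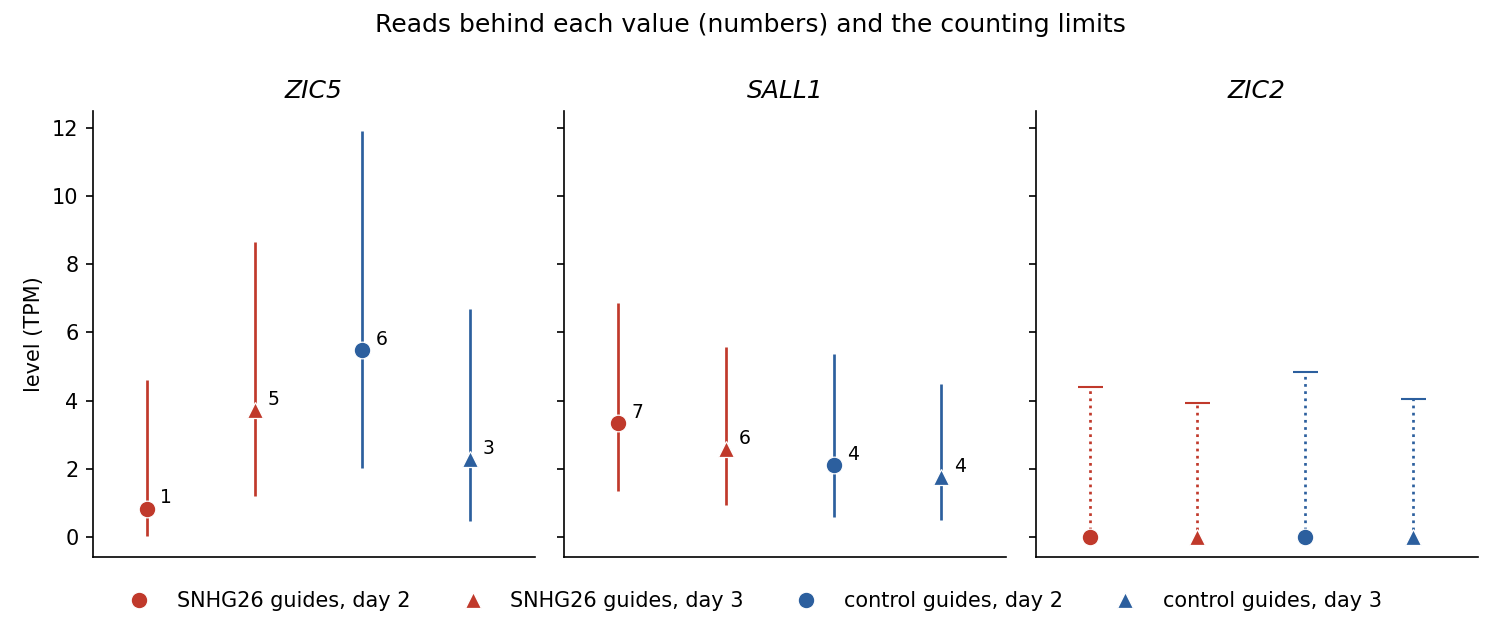
Level in TPM of ZIC5, SALL1 and ZIC2 in each library, with the number of reads printed beside each point of ZIC5 and SALL1. Solid lines are exact 95% Poisson intervals and dotted lines run up to the limit of 3 reads that a count of 0 allows; the intervals of ZIC5 and SALL1 overlap across all 4 libraries.

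For ZIC2, listed at 0, 1 read on its listed span of 4982 bases would be worth 1.46 and 1.31 TPM in the SNHG26 libraries and 1.61 and 1.35 TPM in the control libraries. If the listed 0 stands for a count of 0, it allows up to 3 reads, or 3.93 to 4.84 TPM in a single library and 1.07 TPM over the 4 libraries together. The means of all other members lay above the limit over the 4 libraries. ZIC2 was 1 of 2334 genes listed at 0 in every library. A 0 may also be a failed estimate, to which these limits do not apply. Whether that holds for ZIC2 was not tested. In GENCODE release 29, its longest coding transcript has 3 exons, 2983 bases and 58.8% GC, a GC content above that of 79.6% of the listed coding genes. Of 2700 coding genes with at least that GC content, 19.5% were at 0 in all libraries (95% Wilson interval 18.1% to 21.1%), and of 10555 with less GC, 12.2% were (11.6% to 12.8%). Whether base composition had a part in the ZIC2 value was not tested.

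The other members differ in structure. ZIC5 has 1 annotated transcript with 2 exons (49.7% GC) in that release. OTX2 (chromosome 14, 56799905 to 56816693, minus strand) has 7 coding transcripts from 5 start sites, and its longest has 42.8% GC, the lowest of the 5. SALL2 (chromosome 14, 21521080 to 21537216, minus strand) also has 7 coding transcripts, and SALL1 (chromosome 16, 51135982 to 51152334, minus strand) has 4. The longest SALL1 transcript has 50.1% GC and that of SALL2 has 54.5%. The listed ends of all 5 members differ from those in GENCODE release 29, most for OTX2, which runs there from 56799905 to 56810479. SALL1 runs from 51135975 to 51151367 there, ZIC5 from 99962964 to 99971909, ZIC2 from 99981772 to 99986773 and SALL2 from 21521081 to 21537216. No listed gene overlapped a member, so reads shared with an overlapping listed gene do not enter these values.

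The cells were checked against markers of the labelled type. POU5F1, a core pluripotency factor, stood at 1126 ± 79.5 TPM and its partner SOX2 at 264.3 ± 30.2 TPM (SD, n = 4). Of 12 core pluripotency genes 11 were listed, and all 11 had a value. The lowest mean among them was that of LIN28B, at 0.928 TPM. Since ZIC factors and OTX2 are also made in early neural cells, neuroectoderm genes were read beside them. Of 16 such genes 4 were listed, with summed levels on day 2 and day 3 of 32.1 and 28.0 TPM in the SNHG26 libraries and 31.9 and 23.9 TPM in the control libraries. NES, which stem cells make too, gave 21.5 TPM of the mean, POU3F1 gave 7.23 TPM, HESX1 gave 0.251 TPM and DLK1 was at 0. PAX6 and SOX1 are not analysed here. Collagen and fibroblast genes (3 of 6 listed) summed to 7.95 and 8.17 TPM in the SNHG26 libraries and to 10.7 and 11.9 TPM in the control libraries. Of 18 genes of the naive state 10 were listed, and 8 had a value. They summed to 15.1 and 22.4 TPM in the SNHG26 libraries and to 20.2 and 17.0 TPM in the control libraries. DPPA5 and TFCP2L1 were the highest, at means of 5.57 and 3.56 TPM, and NLRP7 and TBX3 were at 0. Of 9 mesendoderm genes 3 were listed, with EOMES and FOXA2 at 0 and MIXL1 above 0 only in the control library of day 3 (1.98 TPM). Of 8 amnion and trophectoderm genes 3 were listed. They summed to 4.38 and 2.38 TPM in the SNHG26 libraries and to 2.42 and 6.00 TPM in the control libraries. TFAP2C gave 3.37 TPM of the mean, KRT7 gave 0.425 TPM and ISL1 was at 0. The part of these other cell types or states in the members' values was not tested, and in bulk RNA fewer cells of a type and less RNA per cell cannot be told apart.

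**Figure D3:**
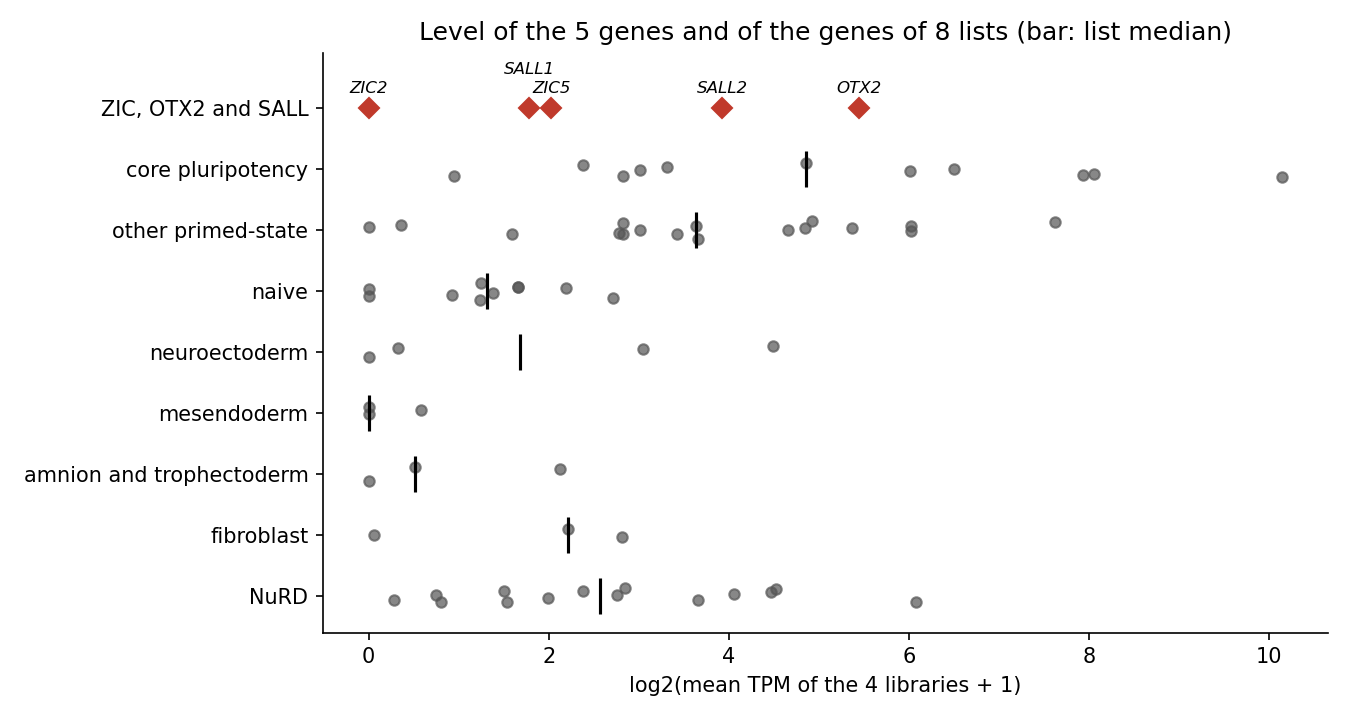
Mean level over the 4 libraries, as log2(mean TPM + 1), of the 5 genes (diamonds) and of the listed genes of 8 lists (points, with bars at the list medians). OTX2 lies above the median of the core pluripotency list, and ZIC5 and SALL1 lie among the naive genes in level.

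The first comparison asked whether these genes changed with repression of SNHG26. Under its own guides SNHG26 was listed at 0 TPM on day 2 and 0.933 TPM on day 3, and the controls had 2.98 and 4.03 TPM, a log2 change of -1.69 (SE 0.58) with a limma adjusted p of 0.935. Changes are differences in log2(TPM + 1), a scale that shrinks the change of low genes, and were tested with limma over the 8274 genes that averaged 1 TPM or more. Of the 5 members 4 reached that level, and ZIC2 did not. None of the 4 passed an adjusted p of 0.05, nor did any of the 8274 genes (0%), of which 337 (4.07%) had an unadjusted p under 0.05. None of the 4 had an unadjusted p under 0.05.

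For OTX2 the difference was -0.07 (SE 0.23, limma adjusted p 0.998), with 41.5 ± 2.81 TPM in the SNHG26 arm and 43.7 ± 2.52 TPM in the control arm (SD, n = 2). Its difference was 0.05 on day 2 and -0.20 on day 3, so the sign was not shared by the days. SALL2 had 0.03 (SE 0.46, limma adjusted p 0.998), with -0.20 on day 2 and 0.27 on day 3. Its value was 0.51 without the SNHG26 library of day 2, -0.45 without that of day 3 and -0.22 without the control library of day 2. Even at its upper bound of reads, which gives the narrowest interval, the OTX2 ratio of SNHG26 over control guides was 0.947 with an exact 95% interval of 0.774 to 1.16. For SALL2 the ratio was 1.07, with 0.744 to 1.53.

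SALL1 was the one member whose arms did not overlap, at 2.95 ± 0.548 TPM under the SNHG26 guides and 1.93 ± 0.244 TPM under the control guides (SD, n = 2). The log2 change was 0.43 (SE 0.40, limma adjusted p 0.94), with 0.48 on day 2 and 0.37 on day 3. It rests on 13 reads against 8, a ratio of 1.53 with an exact 95% interval of 0.588 to 4.26. Among all genes tested, 16.1% had both SNHG26 libraries above both control libraries, and 13.2% had both below, so 1 member of 4 is near that background. ZIC5 had 2.27 ± 2.04 TPM under the SNHG26 guides and 3.88 ± 2.25 TPM under the control guides (SD, n = 2), a log2 change of -0.65 (SE 0.69, limma adjusted p 0.947). On day 2 the value was -1.82, from 1 read against 6, and on day 3 it was 0.52, from 5 reads against 3. Without the day 2 library of the SNHG26 arm the ZIC5 change was 0.03. Over both days the ratio was 0.628, with an exact 95% interval of 0.184 to 1.98.

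**Figure D4:**
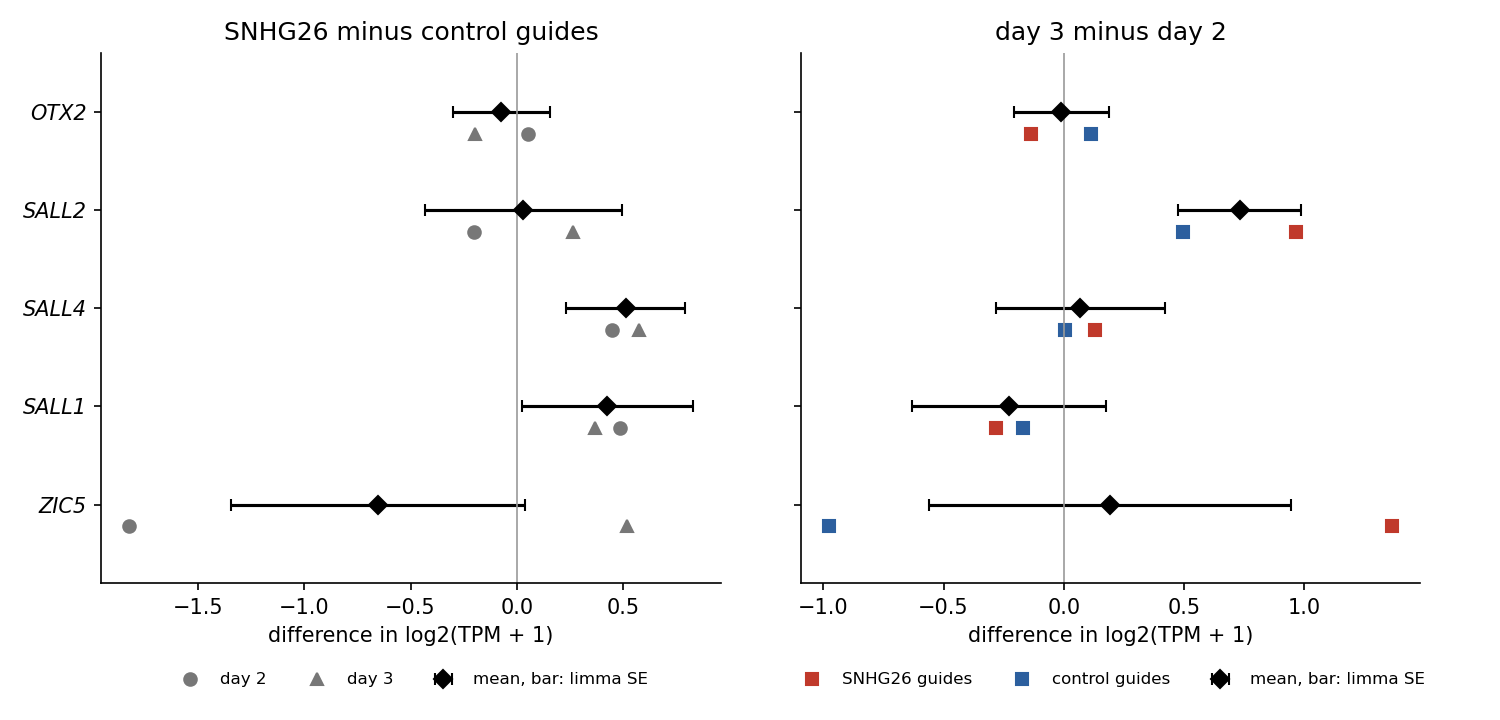
Differences in log2(TPM + 1) between the guide arms (left) and between the days (right) for the tested members and for SALL4, a relative of SALL1 and SALL2. Diamonds are means with the limma SE, and smaller marks are the values of each day or each arm; SALL2 lies right of 0 between the days in both arms, and ZIC5 lies on opposite sides.

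The opposite signs of ZIC5 on the days were put to a test of the difference itself, the guide change on day 3 minus that on day 2. It was 2.34 (SE 1.00) for ZIC5, with a limma adjusted p of 0.961 (unadjusted 0.0782). None of the 4 tested members passed, against 8 of 8274 genes (0.0967%). The other 3 had limma adjusted p-values of 0.999. The spread in this fit came from libraries that differ in both arm and day. With 1 library per arm and day, it cannot tell such a difference from variation of single libraries.

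The second comparison set day 3 against day 2 of doxycycline. None of the 4 members passed, and 3 of 8274 genes (0.0363%) did, or 0 with the guide arm as a block. SALL2 was the one member whose days did not overlap. It averaged 10.4 ± 1.14 TPM on day 2 and 18.0 ± 2.48 TPM on day 3 (SD, n = 2), a log2 change of 0.73 (SE 0.26, limma adjusted p 0.737). The difference was 0.97 in the SNHG26 arm and 0.50 in the control arm, the same direction in both. Its unadjusted limma p was 0.0474, and 6.61% of all genes tested had one under 0.05. Under alternatives that kept all libraries, this limma p of SALL2 ran from 0.035 (quantile scaling) to 0.0974 (guide arm as a block). Both day 3 libraries were above both day 2 libraries in 17.1% of the genes tested, and below in 18.4%. At the upper bounds of reads the ratio of day 3 over day 2 was 1.75, with an exact 95% interval of 1.20 to 2.59, and with fewer reads it would be wider.

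The day values of OTX2 were 42.7 ± 1.11 TPM on day 2 and 42.5 ± 4.22 TPM on day 3 (SD, n = 2), a log2 change of -0.0099 (SE 0.20, limma adjusted p 0.996). SALL1 had 2.72 ± 0.874 and 2.16 ± 0.570 TPM, with -0.23 (SE 0.40, limma adjusted p 0.896). ZIC5 had 3.15 ± 3.29 and 3.00 ± 1.00 TPM, with 0.19 (SE 0.75, limma adjusted p 0.967). The ZIC5 change was 1.37 in the SNHG26 arm and -0.98 in the control arm. An exact permutation test of 2 libraries against 2 cannot go below p = 0.33 (two-sided), so no member was tested in that way.

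Relatives of SALL1, SALL2 and OTX2 were read beside them. SALL4, which works with POU5F1 in pluripotent cells, had 12.8 and 14.2 TPM under the SNHG26 guides and 9.13 and 9.18 TPM under the control guides. Like SALL1, its arms did not overlap, at a log2 change of 0.51 (SE 0.28, limma adjusted p 0.935). The arms of SALL2 overlapped, at a change of 0.03. Of all genes tested, 16.1% had both SNHG26 libraries above both control libraries. OTX1, the paralogue of OTX2, was listed at 0 in all 4 libraries, where a count of 0 allows up to 2.52 to 3.10 TPM. CRX and SALL3 are not analysed here.

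NuRD, the deacetylase and remodelling complex that binds SALL proteins, was read through 14 subunit genes, all of which had a value. RBBP7, a histone-binding subunit, was the highest at 66.3 ± 9.19 TPM (SD, n = 4), and the deacetylase gene HDAC2 and the remodeller gene CHD4 had 21.9 ± 4.12 and 21.1 ± 3.05 TPM. Of 11 subunits tested between the guides, 5 were higher and 6 lower in value, and 0 passed in either direction. Their median log2 change was -0.10, against 0.04 over all genes tested. The highest was CHD3 (1.14, SE 1.08) and the lowest MBD3 (-0.97, SE 0.75), and each rests largely on 1 library. CHD3 had 0.261 and 6.43 TPM under the SNHG26 guides and 0 and 0.923 TPM under the control guides. MBD3 had 0 and 2.26 TPM under the SNHG26 guides and 2.78 and 2.32 TPM under the control guides. Between the days 6 were higher and 5 lower, 0 passed, and the median was 0.08 against 0.0071 over all genes tested.

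A list of 18 other primed-state genes had 17 listed and 15 tested. Their summed levels were 518.9 and 495.0 TPM in the SNHG26 libraries and 505.1 and 498.8 TPM in the control libraries. Between the guides 6 were higher and 9 lower in value, with a median log2 change of -0.06, and 0 passed. The highest was VIM, an intermediate filament gene, at 0.89 (SE 0.40), and the lowest ETV4, a target of FGF signalling, at -0.81 (SE 0.34). Between the days 5 were higher and 10 lower, with a median of -0.14, and 0 passed. CYTL1 had the highest value at 0.80 (SE 0.35) and FGF2, the growth factor that maintains primed cells, the lowest at -0.95 (SE 0.25). The day difference of SALL2 (0.73) thus lay near the upper end of that list, with no test of the difference between them. Of the core pluripotency genes 10 were tested and of the naive genes 7, and 0 passed in either comparison. The median log2 change between the guides was 0.02 for the former and -0.52 for the latter, and between the days -0.14 and 0.38.

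The nearest listed genes beside the members were read for signs of a shared change in a region. ZIC2 and ZIC5 have each other, with PCCA-DT and CLYBL on the outer sides. PCCA-DT, a non-coding RNA gene 66308 bases beyond ZIC2, had 8.97 and 17.5 TPM under the SNHG26 guides and 15.1 and 6.32 TPM under the control guides. The nearest listed genes on both sides of ZIC2 thus had values in every library. CLYBL, with a mean of 0.140 TPM, TMEM260 and LINC03059 beside OTX2, and CYLD and HNRNPA1L3 beside SALL1 were below 1 TPM. METTL3, which methylates adenosine in mRNA, lies 9737 bases from SALL2 and differed by 0.36 between the guides and by -0.19 between the days. DAD1, the nearest listed gene on the other side of SALL2, lies 1027690 bases away. It differed by 0.42 between the guides and by 0.12 between the days. The limma adjusted p between the guides was 0.935 for METTL3 and for DAD1, and neither passed between the days. The day difference of SALL2 was 0.73, and it was not tested against either neighbour.

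Genes most like each member were sought among those averaging 5 TPM or more with a value in every library, by the Euclidean distance of the 4 centred log2(TPM + 1) values. For SALL2 these were TMEM198B (distance 0.0349) and NME3 (0.092), and for SALL1 they were APOE (0.0165) and MRPL38 (0.0331). For OTX2 they were ATP6V1B2 (0.0214) and APLP2 (0.0282), and for ZIC5 MOSPD3 (0.226) and AIG1 (0.245). With only 4 libraries many genes come close. Within a distance of 0.3 there were 458 of 3876 genes for OTX2, 192 of 3877 for SALL1, 67 of 3876 for SALL2 and 2 of 3877 for ZIC5. These counts also depend on how far a member's values spread and on the level of the genes compared, so they do not rank the members.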

How the data were processed

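The values are TPM per gene in a single table as the authors deposited it, 1 column per library. They divide reads by genomic span, introns included. Alignment with minimap2 2.24-r1122 to GRCh38 is per the submitters' processing notes, and the counting tool and annotation are not given in the sources used here. Reverse transcription from oligo-dT and 14 PCR cycles are per the labels' protocols. The TPM worth of 1 read was taken as the most common value of TPM times listed gene span in each library, which left from 20.8% to 21.4% of genes with a value at whole reads within 0.0001 read. For SALL1 the 4 values were whole multiples of 1 unit within 0.002 read. Libraries were grouped by the guides in the labels.

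Genes averaging 1 TPM or more were tested on log2(TPM + 1) using R 4.3.3 and limma 3.58.1 (linear fit, eBayes with trend, Benjamini-Hochberg, threshold 0.05), for guides, for days, and for the guide change between days. The fit for the guides was tested on simulated reads that carried counting error only and no effect of the day. The genes changed in it had more reads than ZIC5 or SALL1, and no result here rests on it. The other fits were not tested in that way. Libraries are paired across arms by the day in the labels. The deviations of same-day libraries had a correlation of 0.0464 over 8274 genes. The members and lists were chosen with earlier results of these data known. Named genes are the members, their families, list extremes, NuRD subunits, the nearest listed genes and the 2 genes alike in pattern, and 1 gene that this rule names is not reported here. PAX6, SOX1 and further list genes are not analysed here. Alternatives were pseudocounts of 0.1 and 5, other filters and scalings, eBayes without trend, a replicate block and leaving out each library.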

Additional observations from a re-analysis of the deposited data

How the results depend on the processing

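No member passed the threshold under any alternative tried, and the lowest limma adjusted p was 0.536 (SALL2 between days, without the control library of day 3). Of 60 values of the 4 tested members under alternatives that kept all libraries, 59 kept their direction. The exception was the guide change of SALL2, which became -0.0167 with median ratio scaling. In this balanced design the other filters, eBayes without trend and the replicate block cannot alter a change. Their directions were fixed in advance, and only the pseudocounts and scalings could differ. Leaving out 1 library changed the sign of 8 of 32 values. Without the SNHG26 library of day 2, these were the guide change of ZIC5 (0.0294) and the day changes of ZIC5 (-0.72), OTX2 (0.0162) and SALL1 (0.0152). Without the SNHG26 library of day 3 they were the guide change of SALL2 (-0.45) and the day changes of ZIC5 (-0.0651) and OTX2 (0.0892), and without the control library of day 2 the guide change of SALL2 (-0.22). The guide changes ran from -1.34 to 0.0294 for ZIC5, from -0.45 to 0.51 for SALL2, from 0.29 to 0.57 for SALL1 and from -0.14 to -0.0055 for OTX2. The day changes ran from -0.72 to 1.11 for ZIC5, from -0.11 to 0.0892 for OTX2, from -0.47 to 0.0152 for SALL1 and from 0.60 to 0.87 for SALL2. In these fits a lone library is assumed to vary like those of the other group. The stricter filter of 5 TPM left ZIC5 and SALL1 untested, since they lay below it.

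Over all genes, 0 passed between the guides under each alternative. Between the days, 3 genes passed. This fell to 0 under either other pseudocount (0.1 and 5), without the filter, after quantile scaling, when eBayes used no trend, and with the replicate block, and ran from 0 to 0 when 1 library was left out. For the guide change between days, 8 genes passed. A pseudocount of 0.1 gave 14, the filter at 5 TPM gave 13, and 0 passed under a pseudocount of 5, without the filter, or when eBayes used no trend. The cause was not tested. In this balanced design a day block cannot move a guide change, so that of SALL1 stayed at 0.43 (limma adjusted p 0.916). No member was called with or without the block. Depth limits ZIC5 and SALL1, at 15 and 21 reads over the 4 libraries, and may limit SALL2 as much, since only bounds on its reads are known.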
